A study of Xenopus laevis with 30 samples.

Results

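The genes described here take messages apart or decide which ones are taken apart: the factors of nonsense-mediated decay (NMD), the exon junction complex, the RNA exosome, the decapping and 5′ to 3′ decay enzymes and the CCR4-NOT deadenylase. Entries were chosen by name alone, as those whose name without its .L or .S ending is upf1, upf2, upf3a, upf3b, a member of the smg, exosc or cnot series, magoh, magohb, rbm8a, casc3, rnps1, xrn1, xrn2, dcp1a, dcp1b, dcp2, edc3 or edc4. This gave 55 of 49109 entries, for 37 genes, with 33 L and 22 S copies. They are 14 entries of NMD factors, 7 of the exon junction complex, 12 of the exosome, 8 of decapping and 5′ to 3′ decay and 14 of CCR4-NOT. No entry bore the names magohb, xrn1 or smg6, so the 55 entries do not cover these genes. L and S mark the pair of homeologous copies that the genome duplication of the frog Xenopus laevis left behind. A further 9 entries named only by a LOC number carry names from these series in a reference gene table and are outside the rule.

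RNA came from animal caps, the ectoderm that can be cut from a frog blastula and grown in a dish. Every embryo received noggin and wnt8 mRNA at the 2-cell stage, a mixture used to turn this ectoderm into neural crest progenitors, so the comparison group carries it too. In NWS the embryos were given an Sf3b4 morpholino as well, which targets a protein of the SF3b splicing complex, and in NW they were not. Caps were dissected at stage 8/9 and grown for 8 hours. Some libraries were prepared after ribosomal RNA had been taken out (depleted) and others with that RNA left in (undepleted), which gives depleted NWS, depleted NW, undepleted NWS and undepleted NW groups of 3 libraries each. The comparison is of NWS with NW, within each preparation. The labels do not say whether libraries of the same number in both preparations come from the same RNA, and a morpholino knockdown leaves cells with some of the protein.

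NMD destroys messages whose reading frame ends too early. In the textbook account, splicing leaves an exon junction complex just upstream of each exon junction, and a complex that stays on the message downstream of a stop codon lets Upf3 and Upf2 reach the helicase Upf1. Smg1 then phosphorylates Upf1, and the Smg proteins bring in cleavage, deadenylation and decapping, after which Xrn1 and the exosome digest the pieces from either end. Because the exon junction complex depends on splicing, these genes stand at the meeting point of splicing and decay. In mice, Magoh and Rbm8a (Y14) are also needed for normal growth of the brain.

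Few counts stood behind most of these entries. Total counts were 351902 to 3570364 in the depleted and 3499960 to 4339788 in the undepleted libraries. A pair of entries took 19.3% to 88.3% of a depleted and 48.8% to 95.2% of an undepleted library. The 55 entries together held 478 to 13581 counts in a depleted library and 247 to 9570 in an undepleted one. NW library 3 alone gave 70.9% of their 32651 counts over both preparations. An entry had a median of 407 counts over all 12 libraries, from 1 for smg5.S and exosc10.S to 3370 for cnot1.L, and 5 entries had 10 or more counts in every library. Between 2 and 23 of the 55 entries had no count in a given library, most of them in NW library 2 (23 depleted, 22 undepleted). A floor of 3 counts equalled 0.268 to 7.58 CPM (normalised counts scaled to a common library size) with depletion and 0.110 to 2.76 CPM without it, which covers counting error only. The targeted transcript sf3b4.L had 27.5, 30.1 and 3.68 CPM in NWS, against 11, 25.3 and 21 CPM in NW with depletion and 11.3, 3.66 and 9.13 CPM in NWS, against 3.65, 10.1 and 6.41 CPM in NW without it. Its copy sf3b4.S had 13.7, 12.9 and 3.68 CPM in NWS, against 21, 15.2 and 17.7 CPM in NW with depletion and 9.47, 6.41 and 4.2 CPM in NWS, against 2.92, 11 and 8.66 CPM in NW without it. Every depleted NWS value of sf3b4.S lay below every depleted NW value, as it did for 4.12% of all entries tested. The groups overlapped in the other 3 cases. No sf3b4 entry passed the test (edgeR adjusted p of 0.999 with depletion and 1.00 without it), and a morpholino that blocks translation need not lower the message. Neural crest markers, as the culture aims for, summed to 463 to 1413 CPM in NWS, against 649 to 1953 CPM in NW with depletion, and to 112 to 425 CPM in NWS, against 205 to 677 CPM in NW without it. Of 19 such entries tested, 5 were higher and 14 lower in NWS with depletion (median log2 fold change -0.94) and 4 higher and 15 lower without it (median -0.89), none of them past the test and 3 at an unadjusted p under 0.05 in each preparation. With the replicate block 0 of these markers passed with depletion and 1 without it, beside 0.197% and 0.223% of all entries. In the fits without blocks, 48.5% of all entries were higher in NWS with depletion and 47.9% without it. An unadjusted p under 0.05 was reached by 3.72% and 4.03% of all entries. The part of these markers in the values of the members was not tested. Endoderm markers, which the explant should lack, summed to 0 to 27.5 CPM in NWS, against 0.499 to 5.8 CPM in NW with depletion. Without it they summed to 0.915 to 1.73 CPM in NWS, against 0.365 to 1.25 CPM in NW. The other lists were not empty either. With depletion, epidermis markers summed to 24.9 to 412 CPM in NWS and 49.9 to 407 CPM in NW. Neural plate markers summed to 275 to 568 CPM in NWS and 239 to 500 CPM in NW. Mesoderm and multiciliated cell markers reached at most 120 and 70.7 CPM. Without depletion these 4 lists reached at most 126, 149, 14.6 and 17.2 CPM. The make-up of the explants was not tested.

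Levels of different genes were compared per transcript length, with the FPKM values the authors deposited (fragments per kilobase of transcript and per library size). Means and SDs in this comparison pool the 3 NWS and 3 NW libraries of a preparation, which are not replicates of 1 condition. The highest member in both preparations was rbm8a.L, which codes for the Y14 core protein of the exon junction complex, at 25.5 ± 16 FPKM with depletion and 7.79 ± 4.23 FPKM without it (SD, n = 6). With depletion it was followed by upf3b.L, which links NMD to the exon junction complex, at 15.2 ± 6.91 FPKM. Next came exosc10.L, a catalytic exosome subunit of the nucleus, at 13.8 ± 7.02 FPKM. The CCR4-NOT entry cnot3.S had 13.6 ± 8.24 FPKM. These SDs are wider than the steps between neighbours, so the order of the upper members was not resolved. Without depletion the order after rbm8a.L was xrn2.L, a nuclear 5′ to 3′ exonuclease, at 4.44 ± 2.79 FPKM, and then magoh.L, the partner of Y14, at 4.1 ± 3.27 FPKM. The exon junction entries had the highest class median, 7.13 FPKM with depletion and 3.39 FPKM without it, and decapping and 5′ to 3′ decay the lowest, 1.59 and 0.562 FPKM. At the low end, smg5.S and exosc10.S had 1 count each over all 12 libraries together, while their L copies smg5.L and exosc10.L had 193 and 1485. Level values of the preparations were scaled apart and are not compared with each other. In such bulk samples fewer cells of a type and less RNA per cell cannot be told apart.

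**Figure D1:**
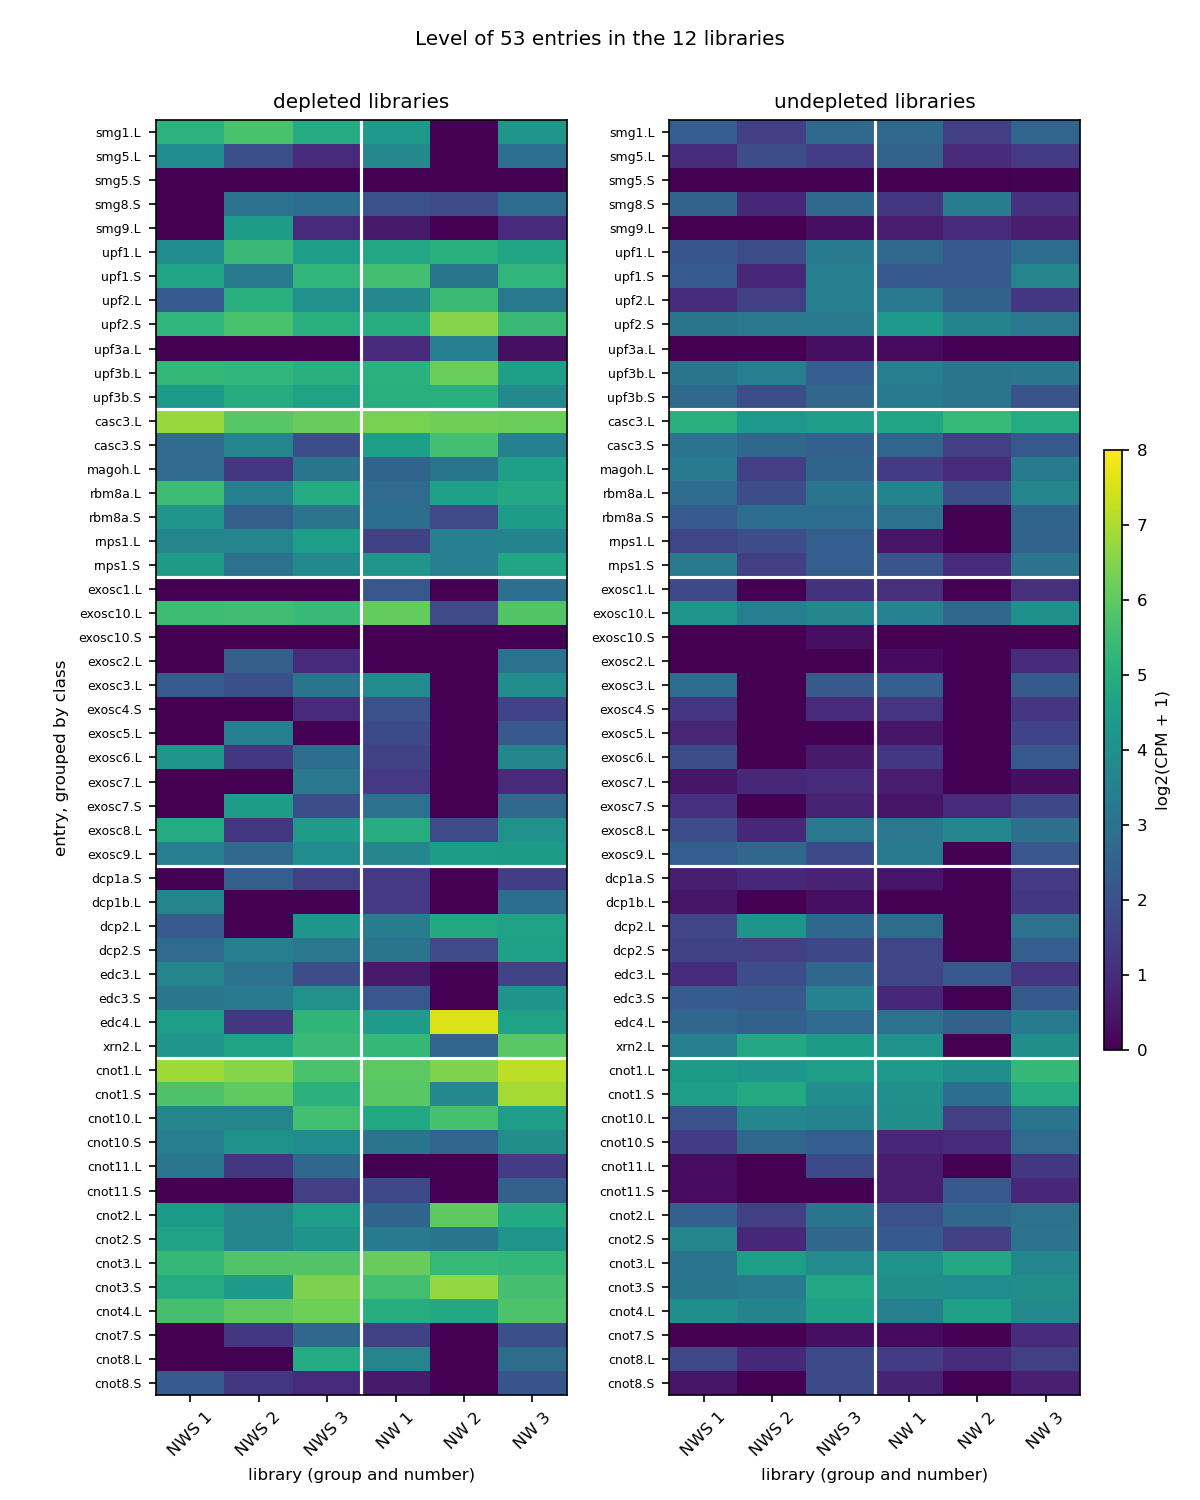
Level of 53 of the 55 entries (rows, by class) in each library (columns, NWS left of NW), as log2(CPM + 1), for depleted libraries on the left and undepleted ones on the right. NW library 2 has the most dark cells (entries without counts) in both preparations, and smg5.S and exosc10.S are dark almost throughout.

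No member passed the test of NWS against NW in either preparation. With depletion 37 members had enough counts to be tested and 0 passed, beside 0 of 6585 entries in all (0.0%), where passing means an adjusted p below 0.05 in the quasi-likelihood test of edgeR. Without depletion 0 of 33 passed, beside 1 of 6284 entries (0.0159%). At an unadjusted p under 0.05 the member counts were still 0 and 0, where all entries gave 3.72% and 4.03%. The edgeR adjusted p of members was 0.999 with depletion and 1.00 without it. A fit with libraries of the same number as blocks passed 13 entries (0.197%) with depletion and 14 (0.223%) without it, and no member in either. DESeq2 and limma-voom also passed no member.

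Fitted changes went in both directions. With depletion 13 members were higher and 24 lower in NWS, beside 48.5% of all entries higher, and the median log2 fold change was -0.21 beside -0.032 over all entries. Without depletion 18 were higher and 15 lower, beside 47.9% higher, and the median was 0.025 beside -0.040. Of the 31 members tested in both preparations, 17 (54.8%) kept their direction, beside 64.4% of all entries, and libraries of one number may share RNA. Every member's 95% interval spanned 0 in each preparation. The narrowest among members was that of casc3.L, -1.30 to 1.36 with depletion and -1.66 to 0.82 without it. These are half-widths worth 2.51-fold and 2.37-fold. The widest were -3.19 to 2.52 for smg5.L with depletion and -2.02 to 2.79 for cnot8.L without it. Values inside these intervals fit the counts of 3 libraries a group at this depth and spread, so absence of change was not shown. Unlike the calls, the intervals are not adjusted for the number of entries tested. The 16 members tested in neither preparation had 1 to 170 counts each over all 12 libraries: upf3a.L, smg5.S, smg9.L, exosc1.L, exosc2.L, exosc4.S, exosc5.L, exosc7.L, exosc7.S, exosc10.S, dcp1a.S, dcp1b.L, cnot7.S, cnot8.S, cnot11.L and cnot11.S.

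**Figure D2:**
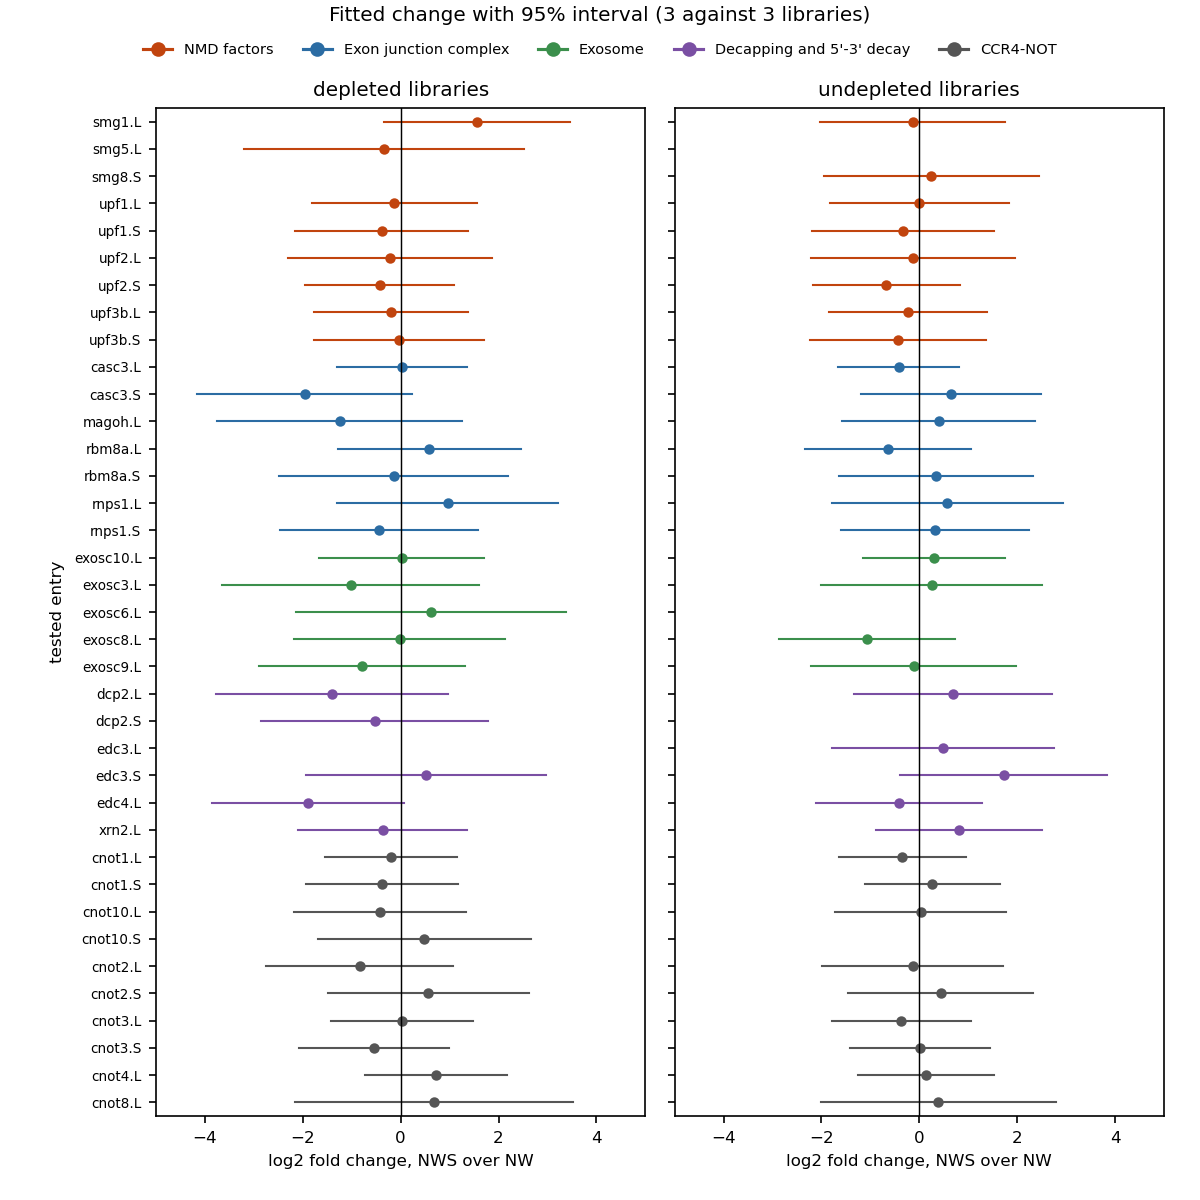
Fitted log2 fold change of NWS over NW (points) with its 95% interval (lines) for members tested, by class (colour), in depleted libraries on the left and undepleted ones on the right, 3 against 3 libraries. All intervals cross 0, and the entries farthest from 0 with depletion shown (casc3.S, edc4.L, smg1.L) lie at 0.64, -0.41 and -0.14 without it.

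Among the NMD factors, the helicase Upf1, the central ATPase of the pathway, is counted in 2 entries. The entry upf1.L had 13.7, 41.6 and 21.2 CPM in depleted NWS libraries 1, 2 and 3, against 26.5, 32.8 and 25.2 CPM in depleted NW libraries 1, 2 and 3, and 3.42, 2.75 and 9.13 CPM in undepleted NWS, against 5.66, 3.68 and 6.04 CPM in undepleted NW. Its groups overlapped in both preparations, with log2 fold changes of -0.13 ± 0.824 (SE) and -0.0011 ± 0.887. For upf1.S the values were 25.5, 8.6 and 37.8 CPM in NWS, against 46.9, 7.58 and 37.5 CPM in NW with depletion and 4.03, 0.915 and 9.87 CPM in NWS, against 3.84, 3.68 and 11.4 CPM in NW without it. The library numbered 2 was the lowest of upf1.S in all 4 groups, by little in undepleted NW, and the log2 fold changes were -0.39 ± 0.863 and -0.33 ± 0.9003.

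The most abundant NMD entry by CPM was upf2.S, for the adaptor that bridges Upf1 and Upf3. It had 37.3, 51.6 and 31.3 CPM in NWS, against 30.5, 93.4 and 41.4 CPM in NW with depletion, where NW library 2 was the highest, and 7.45, 8.24 and 8.39 CPM in NWS, against 19, 11 and 8.29 CPM in NW without it, where NW library 1 was. Its fitted log2 fold changes were -0.43 ± 0.739 and -0.68 ± 0.73. The entry upf3b.L had 39.2, 37.3 and 32.2 CPM in NWS, against 33.4, 73.2 and 21.9 CPM in NW with depletion and 7.45, 10.1 and 4.2 CPM in NWS, against 9.68, 7.36 and 7.73 CPM in NW without it, with log2 fold changes of -0.21 ± 0.765 and -0.23 ± 0.786. Both sets of groups overlapped. Of the 10 NMD entries tested with depletion 2 were higher and 8 lower in NWS (median -0.21), and of the 8 tested without it 1 was higher and 7 lower (median -0.18), with no call among them.

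Among the members tested, NWS and NW libraries that did not overlap occurred with depletion alone. The kinase entry smg1.L and rnps1.L, for a splicing-linked protein that joins the exon junction complex, named after their values were seen, were the 2 of 37 members higher in every NWS library, beside 4.53% of all entries. Of the 37, 1 was lower in every NWS library, beside 4.12% of all entries. No member of 33 was separated in this way without depletion, where the shares of all entries were 4.25% higher and 3.76% lower. For smg1.L the values were 35.3, 51.6 and 29.5 CPM in NWS, against 18.5, 0 and 17.8 CPM in NW with depletion (log2 fold change 1.56 ± 0.922, edgeR adjusted p = 0.999), and 4.23, 1.83 and 5.68 CPM in NWS, against 5.85, 1.84 and 5.16 CPM in NW without it (-0.14 ± 0.919). Its separation included 0 counts in depleted NW library 2, a library in which 23 of the 55 entries had none. For rnps1.L they were 11.8, 11.5 and 21.2 CPM in NWS, against 1.997, 10.1 and 11.2 CPM in NW with depletion and 2.22, 2.75 and 4.2 CPM in NWS, against 0.366, 0 and 4.79 CPM in NW without it, and the nearest NWS and NW libraries with depletion were 11.5 and 11.2 CPM.

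In the exon junction complex, rbm8a and magoh make the core that eif4a3 clamps onto RNA and casc3 completes. The entry rbm8a.L had 45.1, 10.04 and 29.5 CPM in NWS, against 5.99, 22.7 and 27.6 CPM in NW with depletion and 6.24, 2.75 and 7.4 CPM in NWS, against 11.1, 2.76 and 11.6 CPM in NW without it. The lowest depleted library was NW library 1 and the highest NWS library 1, with the others between them, and the fitted log2 fold changes were 0.58 ± 0.909 with depletion and -0.64 ± 0.821 without it. Its S copy rbm8a.S had 17.7, 4.3 and 7.37 CPM in NWS, against 6.49, 2.53 and 20.5 CPM in NW with depletion and 4.03, 6.41 and 6.17 CPM in NWS, against 6.94, 0 and 4.97 CPM in NW without it, again overlapping (-0.14 ± 1.14 and 0.34 ± 0.961).

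The best counted exon junction entry was casc3.L (2423 counts), for the protein also called Barentsz or MLN51. It had 108, 60.2 and 69.1 CPM in NWS, against 83.4, 75.8 and 72 CPM in NW with depletion, and 31.2, 18.3 and 21 CPM in NWS, against 25.6, 40.5 and 29.6 CPM in NW without it. Its mean was 79.1 ± 25.4 CPM in depleted NWS, against 77 ± 5.81 CPM in depleted NW, and 23.5 ± 6.82 CPM in undepleted NWS, against 31.9 ± 7.71 CPM in undepleted NW (SD, n = 3 each). The log2 fold changes were 0.034 ± 0.647 and -0.42 ± 0.602, the smallest standard errors of the members. The RNA helicase entry eif4a3.S, outside the naming rule but part of the same core, had 13.7, 5.73 and 23.9 CPM in NWS, against 13.5, 7.58 and 10.7 CPM in NW with depletion and 4.43, 1.83 and 2.71 CPM in NWS, against 4.93, 2.76 and 4.35 CPM in NW without it, with log2 fold changes of 0.44 ± 1.04 and -0.40 ± 0.95. For eif4a3.L, with 144 counts with depletion and 98 without it, the level was 3.92, 4.3 and 8.29 CPM in NWS, against 2.5, 2.53 and 11.1 CPM in NW with depletion and 0.604, 7.32 and 1.73 CPM in NWS, against 2.56, 3.68 and 2.28 CPM in NW without it, too few for a test. For magoh.L, taken up after its values were seen, the levels were 5.89, 1.43 and 7.37 CPM in NWS, against 4.99, 7.58 and 21.7 CPM in NW with depletion (-1.25 ± 1.22) and 8.86, 1.83 and 4.94 CPM in NWS, against 1.64, 0.92 and 8.73 CPM in NW without it (0.40 ± 0.956), so that its fitted direction differed between preparations and its groups overlapped in each. All 7 exon junction entries were tested in both preparations, 3 higher and 4 lower in NWS with depletion and 5 higher and 2 lower without it, and none passed.

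The exosome is a ring of subunits that feeds RNA to catalytic partners. The entry exosc10.L had 45.1, 45.9 and 41.4 CPM in NWS, against 67.9, 2.53 and 55.8 CPM in NW with depletion. The NWS libraries lay close together while NW library 2 held 1 count and the other NW libraries the highest values, and the log2 fold change was 0.023 ± 0.819, or -0.52 without both libraries numbered 2. Without depletion exosc10.L had 17.1, 10.1 and 12.1 CPM in NWS, against 10.6, 5.52 and 15.2 CPM in NW (0.30 ± 0.706). The ring subunit entry exosc8.L had 29.4, 1.43 and 20.3 CPM in NWS, against 30.5, 2.53 and 16.1 CPM in NW with depletion and 2.82, 0.915 and 8.14 CPM in NWS, against 8.22, 12 and 6.7 CPM in NW without it. Its log2 fold changes were -0.017 ± 1.05 and -1.06 ± 0.874, from groups that overlapped. The reference table lists this name as a synonym of a gene now marked S, so its copy label is uncertain. The other 10 exosome entries had 1 to 452 counts each over all 12 libraries. Only 5 of the 12 could be tested with depletion and 4 without it, and none passed.

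Decapping removes the 5′ cap with dcp2 as the enzyme, helped by edc3 and edc4, and xrn2 digests RNA from its 5′ end in the nucleus. The entry edc4.L, for the scaffold of the decapping complex, had 21.6, 1.43 and 36.8 CPM in depleted NWS libraries 1, 2 and 3, against 20.5, 189 and 23.3 CPM in depleted NW libraries 1, 2 and 3. NW library 2 stood far above all others and NWS library 2 far below, and the remaining NWS and NW libraries overlapped. The log2 fold change was -1.90 ± 0.953 with all 6 libraries, -0.15 without NW library 2 and 0.43 without both libraries numbered 2. Without depletion edc4.L had 5.24, 4.58 and 5.92 CPM in NWS, against 6.94, 4.6 and 9.13 CPM in NW, with NW library 2 next to the lowest value (-0.41 ± 0.819).

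The entry xrn2.L had 17.7, 24.4 and 41.4 CPM in NWS, against 39.4, 5.05 and 60.5 CPM in NW with depletion and 10.3, 27.5 and 19.5 CPM in NWS, against 15.9, 0 and 14.6 CPM in NW without it, where NW library 2 had no count. Its log2 fold changes were -0.37 ± 0.842 and 0.81 ± 0.821. The reference table gives the symbol xrn2.L to a different, LOC-named entry, so which copy this entry counts is uncertain. The largest fitted value without depletion, named after its value was seen, was that of edc3.S, for an enhancer of decapping: it had 4.03, 3.66 and 10.6 CPM in NWS, against 0.914, 0 and 3.76 CPM in NW (1.72 ± 1.03, edgeR adjusted p = 1.00), with NWS library 2 just below NW library 3. With depletion edc3.S had 7.85, 8.6 and 15.7 CPM in NWS, against 3.49, 0 and 16.7 CPM in NW (0.52 ± 1.19). The catalytic subunit entry dcp2.L, also taken up after its values were seen, had 3.92, 0 and 17.5 CPM in NWS, against 9.49, 27.8 and 23.5 CPM in NW with depletion (-1.40 ± 1.15) and 2.22, 16.5 and 5.43 CPM in NWS, against 6.03, 0 and 6.89 CPM in NW without it (0.69 ± 0.979). Again the fitted direction differed between preparations. Of 5 entries of this class tested with depletion 1 was higher and 4 lower in NWS, and of 5 tested without it 4 were higher and 1 lower.

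CCR4-NOT shortens the poly(A) tail, with cnot1 as its scaffold. The entry cnot1.L, the best counted member, had 116, 91.8 and 50.6 CPM in NWS, against 62.4, 85.9 and 147 CPM in NW with depletion and 19.7, 17.4 and 21 CPM in NWS, against 19.2, 14.7 and 39.2 CPM in NW without it. NW library 3 was the highest in both preparations, the NWS values fell inside the NW range or close to it, and the log2 fold changes were -0.20 ± 0.655 and -0.35 ± 0.628. The entry cnot1.S had 53, 64.5 and 34.1 CPM in NWS, against 60.9, 12.6 and 119 CPM in NW with depletion and 20.7, 28.4 and 14.3 CPM in NWS, against 15.2, 6.44 and 29.3 CPM in NW without it. In both preparations NW library 2 was its lowest and NW library 3 its highest, with all NWS libraries between them, and the log2 fold changes were -0.38 ± 0.753 and 0.26 ± 0.671. Of the 5 members with 10 or more counts in every library, the others in this class were cnot3.L, cnot3.S and cnot4.L. They code for a subunit of the complex and a ubiquitin ligase, and were named after their values were seen. Their log2 fold changes were 0.030 ± 0.705, -0.54 ± 0.746 and 0.72 ± 0.708 with depletion and -0.37 ± 0.689, 0.012 ± 0.693 and 0.14 ± 0.672 without it. The levels of cnot4.L were 49.1, 63.1 and 74.6 CPM in NWS, against 31, 27.8 and 53.3 CPM in NW with depletion and 14.9, 11 and 22.7 CPM in NWS, against 9.87, 23 and 12.7 CPM in NW without it, with overlap in both. Of 10 CCR4-NOT entries tested with depletion 5 were higher and 5 lower in NWS (median -0.087), and of 9 without it 6 were higher and 3 lower (median 0.025).

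Summed over a class, NWS and NW libraries overlapped in every class and preparation. All 55 entries together had 976 ± 68.8 CPM in NWS, against 1124 ± 147 CPM in NW with depletion and 287 ± 36.8 CPM in NWS, against 292 ± 62.8 CPM in NW without it (SD, n = 3 each). CCR4-NOT summed to 385 ± 50.9 CPM in NWS, against 413 ± 87.2 CPM in NW with depletion and 112 ± 19.7 CPM in NWS, against 114 ± 23.3 CPM in NW without it. The widest gap between means was in decapping and 5′ to 3′ decay, with 80.5, 55.9 and 124 CPM in NWS, against 83.9, 225 and 157 CPM in NW with depletion, where edc4.L gave 189 of the 225 CPM of NW library 2. Within pairs of the same number, that sum was lower in NWS in 3 of 3 with depletion and in 1 of 3 without it, with no test. Without depletion that class ran the other way, at 25.8, 57.6 and 50.1 CPM in NWS, against 34.5, 8.28 and 42.9 CPM in NW, and NW library 2 was its lowest. The exosome sum was even among depleted NWS libraries and not among NW libraries, at 106, 91.8 and 102 CPM in NWS, against 143, 25.3 and 143 CPM in NW, with NW library 2 the low one.

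**Figure D3:**
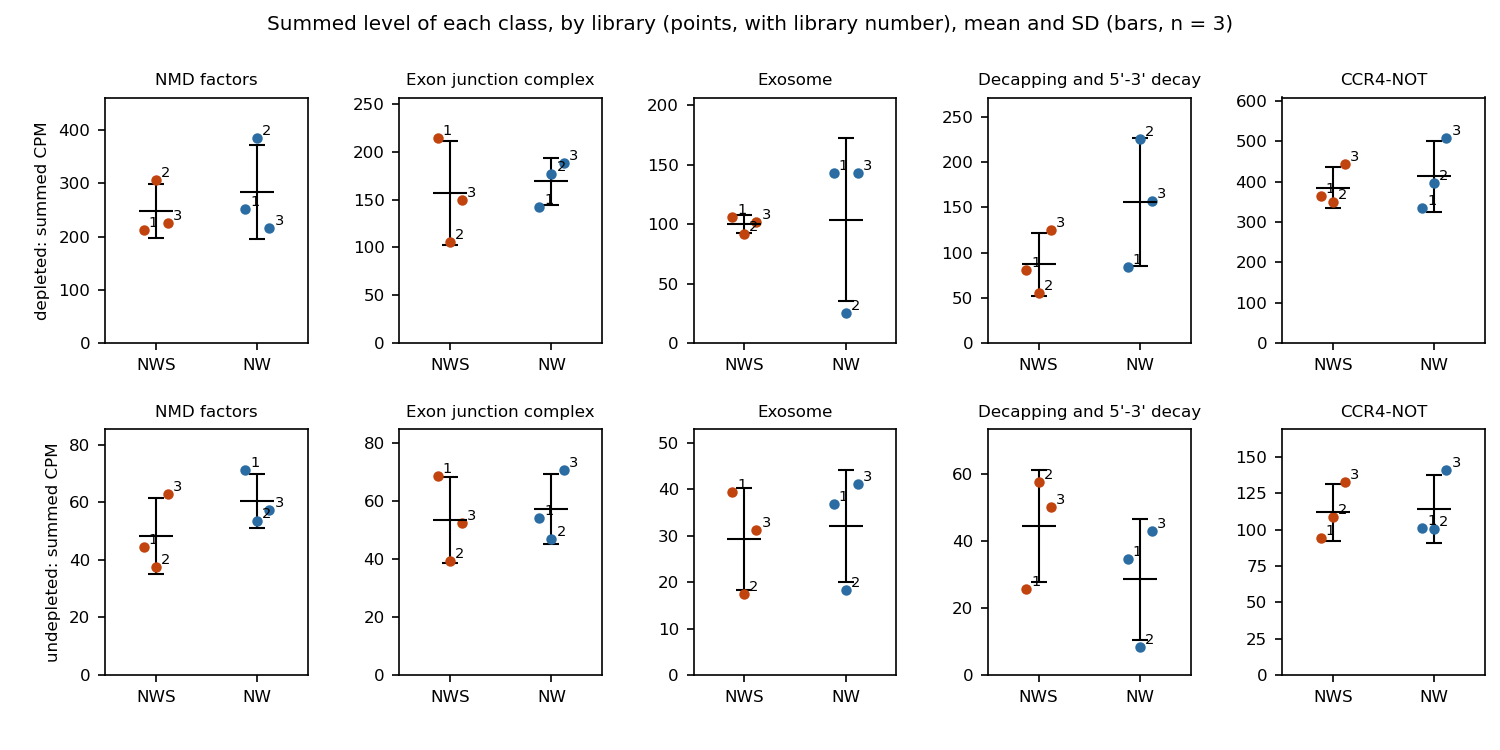
Summed CPM of each class in every library (points, numbered by library) with the mean and SD (bars, n = 3), NWS left of NW, for depleted libraries in the upper row and undepleted ones in the lower row. Points of NWS and NW overlap in all 10 panels, and the library numbered 2 in NW is the highest decapping value with depletion and the lowest without it.

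The library numbers run from 1 to 3 in both preparations, and how alike the same number was over the 55 entries depended on the library. The Pearson correlation of log2(CPM + 1) between preparations, across entries that are not independent replicates, was 0.77, 0.63 and 0.85 in NWS libraries 1, 2 and 3, and 0.87, 0.64 and 0.95 in NW libraries 1, 2 and 3. The lowest values were at number 2, where the members had 247 to 633 counts, and the highest in NW library 3 with 9570 and 13581 counts. In NW library 2, edc4.L held 15.7% (75 of 478 counts, exact 95% interval 12.55% to 19.3%) of the members' counts with depletion but 2.02% (5 of 247 counts, exact 95% interval 0.66% to 4.66%) without it. For casc3.S, named after its values were seen, the shares were 3.97% (19 of 478 counts, exact 95% interval 2.41% to 6.14%) and 0.81% (2 of 247 counts, exact 95% interval 0.0982% to 2.89%). The intervals of edc4.L do not meet and those of casc3.S meet narrowly. The other way round, casc3.L in NW library 2 had 6.28% (30 of 478 counts, exact 95% interval 4.27% to 8.84%) with depletion and 17.8% (44 of 247 counts, exact 95% interval 13.3% to 23.2%) without it. In NWS library 2, dcp2.L had 0 of 633 counts with depletion, which allows up to 0.581%, and 6.32% (18 of 285 counts, exact 95% interval 3.79% to 9.8%) without it. In the same library number smg1.L had 5.69% (36 of 633 counts, exact 95% interval 4.01% to 7.79%) with depletion and 0.702% (2 of 285 counts, exact 95% interval 0.0851% to 2.51%) without it. For casc3.L, dcp2.L and smg1.L none of these pairs of intervals meet, and all intervals cover counting error only. Differing cases were picked after the values were seen. In NWS library 2, casc3.L had 6.64% (exact 95% interval 4.82% to 8.86%) with depletion and 7.02% (4.34% to 10.6%) without it. The intervals of upf2.S, upf3b.L and exosc10.L met in NWS library 2 and in NW library 2. How many of the 55 entries differed in this way was not counted.

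The entries with the lowest depleted fold changes, casc3.S and edc4.L, were both highest in depleted NW library 2. Their log2 fold changes with depletion were -1.96 ± 1.07 and -1.90 ± 0.953 with that library, and -1.32 and -0.15 when it was left out. In NWS library 2, smg9.L and exosc7.S, also named after their values were seen, had 14 counts each with depletion and 0 each without it. With depletion, 14 of 633 member counts is a share of 2.21% for each (exact interval 1.21% to 3.68%). Without it, 0 of 285 member counts allows a share of up to 1.29% by the exact interval. These intervals meet narrowly and cover counting error only. Depletion against no depletion passed 0 of 49 members in NWS, beside 0 of 13224 entries (0.0%), and 0 of 49 in NW, beside 3 entries (0.0227%). The preparations were sequenced in different lanes, so depletion and lane cannot be told apart here. This fit also does not pair libraries of the same number. The interaction of morpholino and preparation passed 0 of 49 members and 0 of 13224 entries (0.0%) in edgeR, with 2 members (4.08%) and 231 entries (1.75%) at an unadjusted p under 0.05. Those were exosc1.L and smg9.L. For exosc1.L, a cap subunit of the exosome, the raw counts were 0, 0 and 0 in depleted NWS, against 7, 0 and 74 in depleted NW, and 12, 0 and 5 in undepleted NWS, against 6, 0 and 32 in undepleted NW. For smg9.L, a regulator of the Smg1 kinase, they were 0, 14 and 1 in depleted NWS, against 1, 0 and 11 in depleted NW, and 0, 0 and 1 in undepleted NWS, against 3, 1 and 14 in undepleted NW. Since exosc1.L had no count in depleted NWS and smg9.L only 1 in undepleted NWS, no fold is given. The reference table lists the names smg9.L and exosc2.L as synonyms of genes now marked S, so their copy labels are uncertain.

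**Figure D4:**
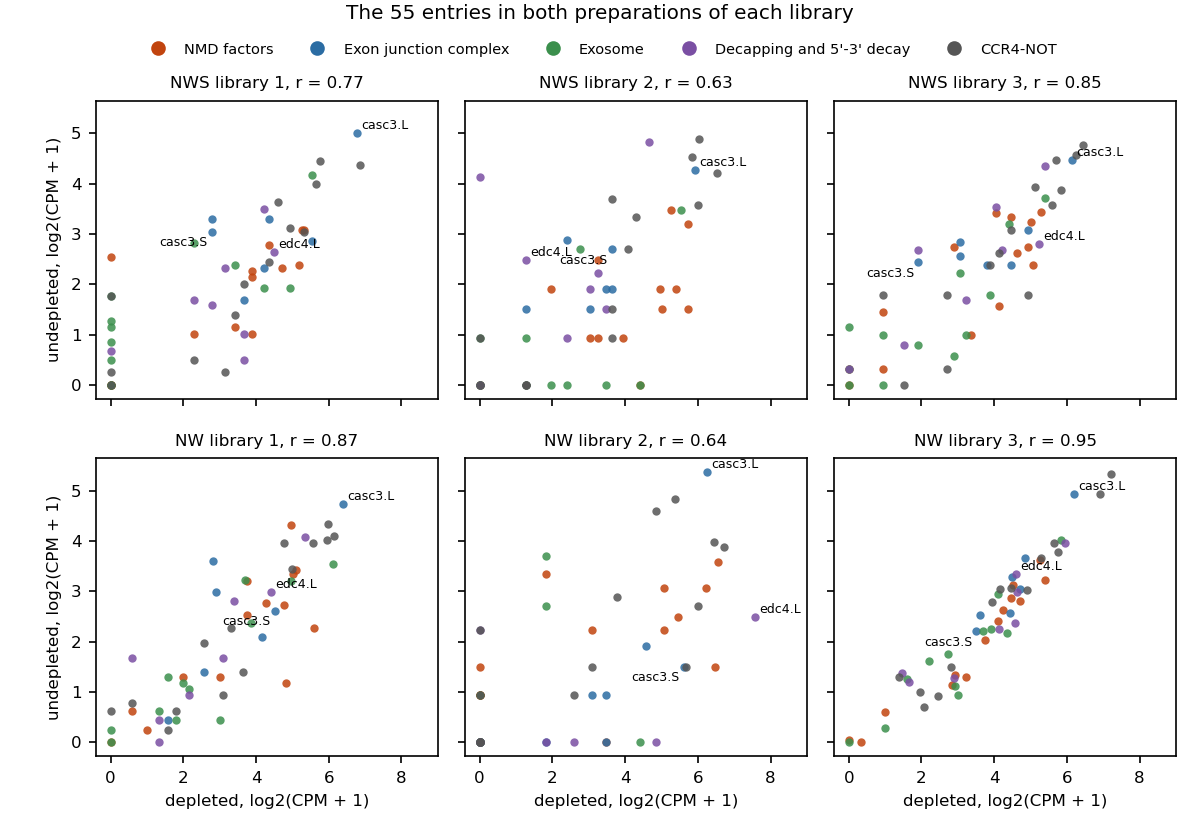
The 55 entries in the depleted (x axis) and undepleted (y axis) preparation of each library, both as log2(CPM + 1), with NWS in the upper and NW in the lower row and Pearson's r in each title. NW library 3 follows a line (r = 0.95), while in NW library 2 (r = 0.64) edc4.L and casc3.S stand far to the right.

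Both libraries numbered 2 were set against numbers 1 and 3, with the counts of both preparations added up and the morpholino as a covariate. The edgeR test passed 136 of 12554 entries (1.08%) and 0 of 46 members. Of the members, 16 were higher and 30 lower at number 2, beside 35.4% of all entries higher, and 5 had an unadjusted p under 0.05 (10.9%, beside 12.6% of all entries), all of them lower: upf1.S, cnot8.L, exosc1.L, exosc3.L and exosc6.L. These are named by that count and not by the rule. Of 9 exosome entries tested 1 was higher and 8 were lower, and of 12 NMD factors 8 were higher and 4 lower. Of 7 exon junction entries 1 was higher and 6 lower, and of 12 CCR4-NOT entries 3 were higher and 9 lower. In decapping and 5′ to 3′ decay 3 were higher and 3 lower, so the lean to lower values was not particular to the exosome. Since exosc1.L and exosc4.S had 0 counts in all libraries numbered 2, no fold is given for them. In the libraries numbered 2, 4 of the 12 exosome entries had no count in depleted NWS, 9 in depleted NW, 8 in undepleted NWS and 9 in undepleted NW. In the other 8 libraries this number was 1 to 7. All exosome entries together had 64, 10, 19 and 20 counts in these 4 libraries, in that order, and the part of depth in these numbers was not tested.

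Where both copies of a gene were named and had at least 10 counts, they were compared by FPKM. The L copy was the higher by mean in 11 of 16 pairs (68.8%), beside 55.9% of the 3733 pairs in the whole table, with a median log2 ratio of L to S of 0.42 beside 0.20. By raw counts, divided neither by length nor by library depth, it was 8 of 16, and the median was 0.09. NW library 3 weighs most in those means, so the part of transcript length in the lean to L was not tested. In 1 pair, cnot10, a CCR4-NOT subunit named after its values were seen, L was above S in all 12 libraries, beside 3.75% of all pairs, and no pair had S above L in all 12, beside 2.65%. For cnot10 the L share was 63.3, 51.2 and 83.1% in depleted NWS, 83.6, 93.5 and 67.7% in depleted NW, 73.1, 75.8 and 78.9% in undepleted NWS and 95.8, 74 and 64.2% in undepleted NW. That is a mean ratio of 3.74-fold, although NWS library 2 with depletion was close to equal. By raw counts L was below S in that library (8 against 11). The 1 pair with L above S in all 12 libraries was then casc3, so the pair named depends on length.

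For rbm8a, L was above S in 11 of 12 libraries, by 3.31-fold in mean FPKM (16.7 ± 14.5 against 5.03 ± 3.96 FPKM, SD over 12 libraries), and for casc3 also in 11, by 2.20-fold. By group, the log2 ratio of L to S was 2.19 in depleted NWS, 1.61 in depleted NW, 0.65 in undepleted NWS and 1.74 in undepleted NW for rbm8a. For casc3 it was 2.42, 0.33, 0.86 and 1.99 in the same groups, so the means over 12 libraries hide a wide spread between groups scaled apart. The S copy led for upf2 in 11 of 12 libraries, by 2.23-fold. For upf1 the copies were near each other, at 2.59 ± 2.06 FPKM for L and 2.74 ± 2.66 FPKM for S, with S higher in 8 of 12 libraries. No source used here says how reads that match both copies were counted, so these ratios are uncertain.

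**Figure D5:**
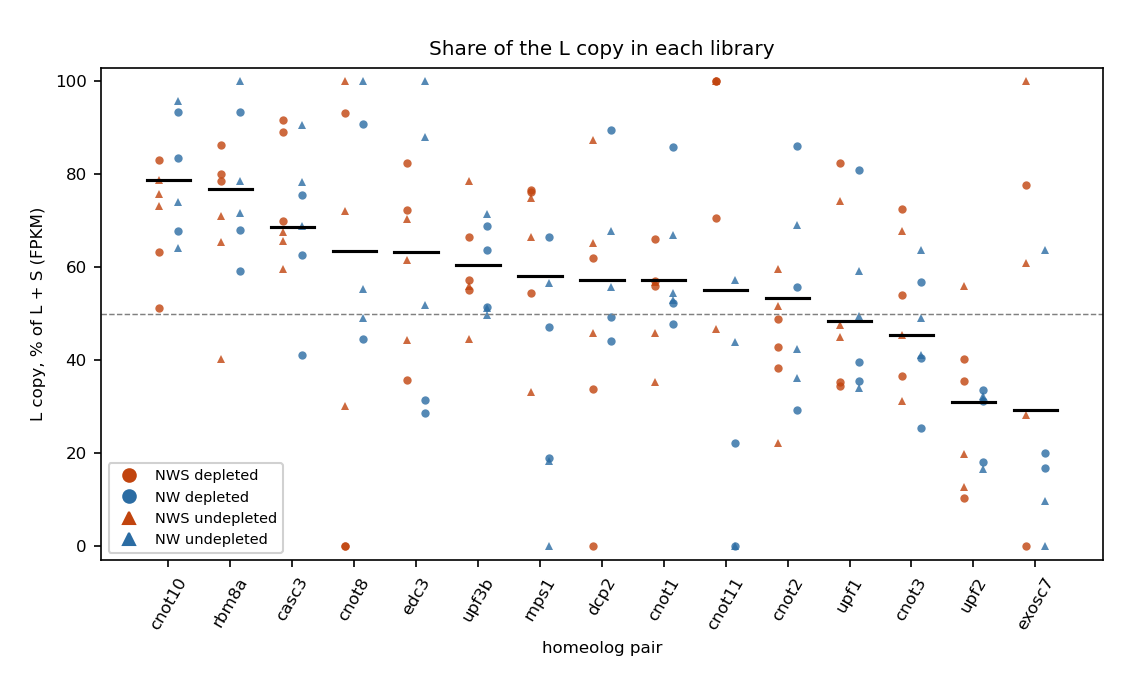
Share of the L copy in the sum of both copies' FPKM, for each library (points: NWS left of NW, circles depleted, triangles undepleted) and by mean FPKM (black bars), over 15 of the 16 homeolog pairs. All points of cnot10 lie above 50%, and the pairs with few counts (cnot8, cnot11) spread from 0 to 100%.

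Other genes of the same machinery were counted in the same fits. Of the further NMD and exon junction genes (release factors, cap-binding proteins, acin1, pnn, sap18, pnrc2 and others) 17 of 20 entries were tested with depletion, 6 higher and 11 lower in NWS (median -0.20), and 13 without it, 4 higher and 9 lower (median -0.094). Of the exosome's partners (dis3, mtrex, the ski and NEXT proteins) 14 of 22 were tested with depletion, 8 higher and 6 lower, and 9 without it, 3 higher and 6 lower. Of further decapping and deadenylation genes (ddx6, the lsm ring, pan2 and pan3, btg and zfp36 families, cnot6l) 22 of 49 were tested with depletion, 12 higher and 10 lower, and 21 without it, 10 higher and 11 lower. No entry of these lists passed in either preparation, with or without blocks. The 9 LOC-named entries with member names gave no call either, with 3 higher and 3 lower of 6 tested with depletion and 3 higher and 4 lower of 7 without it.

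Transcripts that rise in human cells when NMD is blocked, such as atf4 and its stress-response relatives, were mostly too low to read. Of 16 entries with such names 2 were tested, atf4.L and atf4.S. For atf4.L the levels were 58.9, 34.4 and 12 CPM in NWS, against 60.4, 85.9 and 11.2 CPM in NW with depletion (-0.57 ± 0.832) and 26.4, 6.41 and 5.68 CPM in NWS, against 9.14, 12 and 4.83 CPM in NW without it (0.64 ± 0.784). The log2 fold changes of atf4.S were 0.24 ± 1.01 and 0.22 ± 0.864. Neither passed, and 3 of the 16 entries had no count in the libraries of a preparation. The counts are per gene and hold no isoforms, so premature stop codons and retained introns were not measured.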

How the data were processed

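The authors deposited raw counts per gene, made from total RNA libraries, and FPKM values beside them. The submitters' processing notes name bcl2fastq, STAR, featureCounts and DESeq2. The sources used here do not give a genome build, an annotation or a strand setting. The deposited FPKM follow median-of-ratios size factors and gene length. Groups and replicate numbers come from the labels, which call the 3 libraries of a group biological replicates; p-values measure the spread between these libraries. The 30 samples are, per the labels' titles, sequencing lanes (3 a depleted and 2 an undepleted library), and the deposited columns hold 12 libraries.

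Counts were tested with edgeR 4.0.16 (TMM scaling, filterByExpr with a minimum count of 10, quasi-likelihood test, Benjamini-Hochberg adjustment over all entries, threshold 0.05) in R 4.3.3, for each preparation apart, for the interaction and the preparations over 12 libraries, and for number 2 against 1 and 3. CPM use TMM within a preparation. Only the edgeR group fit of NWS against NW was tried on simulated counts. The replicate block, the interaction, the preparation and library number fits, the other tools and the comparison of copies were not. DESeq2 1.42.0, limma 3.58.1 (voom), other scalings and filters, the replicate block, homeologs summed and each library left out were alternatives. Not all of them were run for every comparison. Figures used Python 3.11.15 and matplotlib 3.10.9, and exact binomial intervals (95%) scipy 1.17.1. Over genes, deviations of same-numbered libraries from their group means correlated at 0.141 to 0.248 with depletion and 0.128 to 0.255 without it. Those of other numbers correlated at -0.188 to 0.0614 and -0.208 to 0.0389. Deviations of 3 libraries from their mean sum to 0, so these ranges are not independent of each other. The part of library depth in them was not tested. The numbers were taken to pair NWS with NW, which the labels do not state and the replicate block uses. Fold changes, standard errors, intervals and adjusted p-values of the main edgeR fits leave this pairing out.

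Genes were named by rule: copies of upf1, rbm8a and eif4a3, the 2 entries of each class with the highest mean CPM, and members passing a test, under an unadjusted p of 0.05 in NWS against NW, or without overlap in both preparations; others are said to be named after their values were seen. Members and lists were chosen with earlier results of these data known. A table of RefSeq symbols matched 49 of the 55 names. No sequences were used. The entries of 1 gene are counted in the totals and not reported by name.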

Additional observations from a re-analysis of the deposited data

How the results depend on the processing

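Members called stayed at 0 in each comparison under every alternative run for it. For NWS against NW these were the replicate block, other scalings and count filters, other tools, all 12 libraries in one fit, dominant entries left out and each library left out. The interaction and the preparations were rerun only with DESeq2 size factors, the replicate block, no filter and each library left out. Number 2 against 1 and 3 was rerun only with DESeq2 size factors, no filter, each preparation alone and dominant entries left out. What moved was the number of entries called over the whole table. For NWS against NW with depletion (0 with edgeR as set) it was 20 with no filter on low counts, 9 with DESeq2, 2 with limma-voom, 13 with the replicate block, 3 in the fit of all 12 libraries, 1 without both libraries numbered 2, and 0 to 24 with 1 library left out (omitting NWS libraries 1, 2 and 3 gave 24, 4 and 3, and omitting NW library 1 gave 7). Without depletion (1) it was 29 with no filter, 19 with DESeq2, 14 with the replicate block, 0 with both preparations summed, and 1 to 26 with 1 library left out (omitting NWS libraries 1, 2 and 3 gave 25, 6 and 3, and omitting NW libraries 1 and 2 gave 26 and 3). Depleted against undepleted gave 10 with the replicate block and 8 with no filter in NWS (0), and 10 and 12 in NW (3), with 0 to 6 (6 without depleted NWS library 2) and 1 to 22 (22 without undepleted and 19 without depleted NW library 1) when 1 library was left out. The interaction gave 0 to 8 (8 without undepleted and 6 without depleted NW library 1). Number 2 against 1 and 3 (136) gave 63 with no filter, 45 in depleted libraries alone, 44 in undepleted ones alone and 27 with dominant entries left out. Leaving out both libraries numbered 2 and summing the preparations were chosen after seeing the data. The cause of these moves was not tested.

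Of 725 recomputed fold changes of named genes 651 kept their direction, 74 changed it and 0 passed. The changes of direction with depletion were, on the log2 scale, exosc8.L 0.037 with DESeq2 size factors, exosc10.L -0.024 with upper-quartile scaling, casc3.L -0.040, exosc10.L -0.12, cnot3.L -0.047 with no filter, exosc8.L 0.072 with DESeq2, upf3b.L 0.29, casc3.L -0.0088 with limma-voom, rbm8a.S 0.15, casc3.L -0.00097 with the replicate block, exosc10.L -0.019 in the fit of all 12 libraries, exosc10.L -0.010 with dominant entries left out, upf3b.L 0.36, exosc10.L -0.52, exosc8.L 0.081, edc4.L 0.43, cnot3.L -0.17, cnot3.S 0.28 without both libraries numbered 2. Without depletion they were upf1.L 0.0050 with DESeq2 size factors, upf1.L 0.045 with upper-quartile scaling, cnot3.S -0.021 with no filter, cnot3.S -0.022 with a count minimum of 20, upf1.L 0.049 with DESeq2, cnot3.S -0.17, dcp2.L -0.11 with limma-voom, cnot3.S -0.20 with the replicate block, upf1.L 0.076 in the fit of all 12 libraries, upf1.L 0.053 with dominant entries left out, upf1.L 0.15, rbm8a.S -0.16, cnot1.S -0.29, dcp2.L -0.71 without both libraries numbered 2. With 1 library left out, the ranges of fold changes that changed direction were, with depletion, upf1.L -0.65 to 0.20, casc3.L -0.21 to 0.20, upf1.S -0.93 to 0.016, rbm8a.S -0.80 to 1.01, exosc10.L -0.52 to 0.50, exosc8.L -0.61 to 0.71, cnot3.L -0.12 to 0.39, eif4a3.S -0.18 to 0.82, cnot1.L -0.44 to 0.25, upf2.S -0.69 to 0.11, upf3b.L -0.49 to 0.35, xrn2.L -0.86 to 0.28, cnot1.S -0.88 to 0.42, and without depletion, upf1.L -0.71 to 0.32, magoh.L -0.18 to 1.98, upf1.S -1.23 to 0.48, smg1.L -0.45 to 0.21, dcp2.L -0.23 to 1.19, upf3b.L -0.43 to 0.087, cnot3.S -0.76 to 0.38, cnot4.L -0.15 to 0.57, rbm8a.S -0.096 to 0.88, cnot1.S -0.089 to 0.97, cnot3.L -0.71 to 0.015, cnot1.L -0.57 to 0.23. The median over members ran from -0.22 to -0.04 with depletion and from -0.17 to 0.25 without it. The width of the intervals holds both counting error and the spread between 3 libraries.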
